A study of Mus musculus with 2 samples.

Results

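The 4 genes described here, Mir199a-1, Mir199a-2, Mir199b and Mir214, encode the mouse microRNAs miR-199a, miR-199b and miR-214. They were taken as the rows of both count tables whose Ensembl identifiers carry these names in GENCODE M21, 4 of 2202 microRNA genes in all. The samples were 2 libraries for microRNA sequencing, made from total RNA of the gastrocnemius, a large calf muscle, of female B6CASTF1/J mice aged 25 days, which are first-generation hybrids of the strains C57BL/6J and CAST/EiJ. No treatment, allele or second tissue was included, so there was 1 group, with biological replicates 2 and 1. The labels number the females separately but carry 1 donor identifier for both, so the spreads below are those of these libraries and may be technical. Replicate 2 held 5429127 counts on the strand of microRNA genes and replicate 1 held 1573213, and levels are in CPM, the counts of a gene per 1000000 such counts. All 9 striated muscle microRNA genes listed were detected, meaning that both libraries reached 2 CPM, with Mir206, specific to skeletal muscle, at 72482 CPM in replicate 2, against 34864 CPM in replicate 1.

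MicroRNAs are short RNAs cut from hairpin transcripts that lower the output of messenger RNAs they pair with, mainly through the seed, bases 2 to 8 of the mature strand. In mammals, miR-199 and miR-214 are abundant in fibroblasts and other mesenchymal cells, and Mir199a-2 and Mir214 are made together from the long non-coding RNA Dnm3os, which mice need for normal growth of the skeleton. In mouse muscle precursor cells, miR-214 is known to act on the Polycomb protein Ezh2 during differentiation. Whole muscle holds fibres, fibroblasts, vessels, nerve and blood, so the level of a gene here cannot be assigned to 1 cell type. In such tissue, fewer cells of a type and less RNA per cell cannot be told apart.

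The mature strands are shown first because they decide which reads can be tied to 1 gene. They were taken from RefSeq for GRCm38.p6, written 5′ to 3′ with the seed in capitals. All 4 genes matched that table, and miR-199b-5p is named only.
miR-199a-5p: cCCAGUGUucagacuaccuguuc
miR-199a-3p and miR-199b-3p: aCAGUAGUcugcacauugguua
miR-214-5p: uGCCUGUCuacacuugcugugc
miR-214-3p: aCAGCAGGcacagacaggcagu
The miR-199a-3p strand is encoded in 3 hairpins of the table, those of Mir199a-1, Mir199a-2 and Mir199b. The miR-199a-5p strand is encoded in 2 hairpins, those of Mir199a-1 and Mir199a-2. Each strand of miR-214 occurs in 1 hairpin, that of Mir214. The stretch of the Mir199b hairpin nearest to miR-199a-5p differs from it by the single substitution C10U, counted from 1 at the 5′ end of miR-199a-5p, and matches it at the other 22 of 23 bases. The seeds of miR-199a-5p, miR-199a-3p and miR-214-5p occur in no mature strand of the RefSeq table outside these 4 genes. The seed of miR-214-3p is shared with 1 other microRNA, miR-761, of the gene Mir761 on chromosome 4.
miR-761: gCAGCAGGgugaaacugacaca
Mir761 had 0 counts in replicate 2 and 2 counts in replicate 1, under 2 CPM in both, so Mir214 alone was detected among the genes with this seed.

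The hairpins show how much of each gene differs from the others. Capitals mark bases that lie in a window of 22 bases also present in another hairpin of the table, and lower case marks bases outside such windows.
Mir199a-1: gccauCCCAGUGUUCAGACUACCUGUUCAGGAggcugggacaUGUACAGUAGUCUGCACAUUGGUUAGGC
Mir199a-2: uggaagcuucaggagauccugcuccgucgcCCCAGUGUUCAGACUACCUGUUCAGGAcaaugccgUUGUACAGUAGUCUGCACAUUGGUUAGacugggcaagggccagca
Mir199b: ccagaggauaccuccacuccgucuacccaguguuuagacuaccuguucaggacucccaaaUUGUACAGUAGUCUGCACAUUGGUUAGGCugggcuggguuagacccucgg
Mir214: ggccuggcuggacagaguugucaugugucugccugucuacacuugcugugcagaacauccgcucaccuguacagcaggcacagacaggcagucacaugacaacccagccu
In Mir199a-1, 55 of 70 bases lay in shared windows, and in Mir199a-2 54 of 110, and in both genes these bases covered both mature strands whole. In Mir199b, 29 of 110 bases were shared, all around the 3p strand, while its 5p side held no shared window. In Mir214, 0 of 110 bases lay in a shared window. The order of the genes by shared bases, Mir199a-1, Mir199a-2, Mir199b and Mir214, was the reverse of their order by CPM given below. This order is over 4 genes and carries no test.

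**Figure D1:**
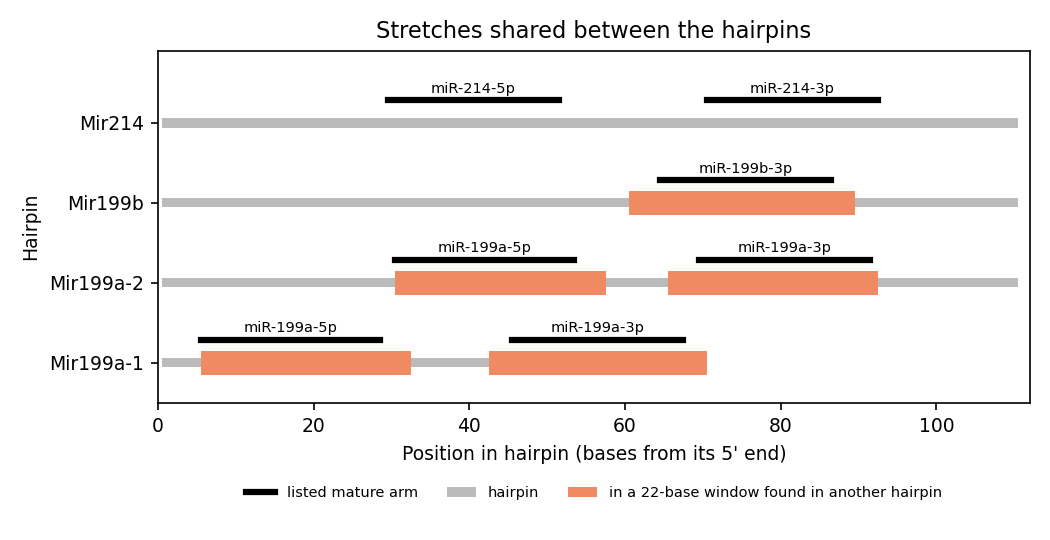
Map of the hairpins of Mir214, Mir199b, Mir199a-2 and Mir199a-1, with position in bases from the 5′ end on the horizontal axis. Black lines are listed mature strands and orange blocks are bases in a window of 22 bases found in another hairpin: 0 bases in Mir214, 29 in Mir199b, 54 in Mir199a-2 and 55 in Mir199a-1.

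All 4 hairpins lie opposite a dynamin gene, a family of enzymes that pinch off membrane vesicles. In the mm10 assembly, Mir199a-1 (ENSMUSG00000065547.1) spans chr9:21496495-21496564 on the reverse strand, within intron 15 of 20 in a transcript of Dnm2, which runs forward. Mir199b (ENSMUSG00000092807.1) spans chr2:32318460-32318569 on the forward strand, within intron 15 of 22 in a transcript of Dnm1, which runs in reverse. Mir199a-2 (ENSMUSG00000070126.1) spans chr1:162217814-162217923 and Mir214 (ENSMUSG00000065516.1) spans chr1:162223368-162223477, both on the forward strand. The hairpins of Mir199a-2 and Mir214 lie 5444 bases apart within the same intron of Dnm3, intron 14 of 20, and both overlap exons of Dnm3os, which runs forward from 162217623 to 162225550. Exons of 5 of 6 annotated Dnm3os transcripts overlap Mir199a-2 and exons of 3 of 6 overlap Mir214. The only other microRNA gene of the table within 10 kb of a member was Gm23363, 116 bases from Mir199b, with 0 counts in replicate 2 and 1 count in replicate 1.

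By counted reads, Mir214 was by far the highest of the 4 genes, Mir199b and Mir199a-2 were low, and Mir199a-1 was barely counted. Reads with several alignments are in none of these counts, and every listed miR-199 strand occurs in more than 1 hairpin. Mir214 had 2355 CPM in replicate 2 (12783 counts) and 1674 CPM in replicate 1 (2633 counts), a mean of 2014 ± 481 CPM (SD, n = 2). It ranked 50 among the 2202 genes by mean CPM, beside Mir376c at 2045 ± 57.3 CPM and Mir497 at 1985 ± 75.7 CPM, and the gaps between these 3 means were below the SD of Mir214. Mir199b had 58.8 CPM in replicate 2 (319 counts) and 111 CPM in replicate 1 (174 counts), a mean of 84.7 ± 36.7 CPM at rank 178. Its value in replicate 1 was the higher, the opposite of Mir214.

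Mir199a-2 had 19.7 CPM in replicate 2 (107 counts) and 28.6 CPM in replicate 1 (45 counts), a mean of 24.2 ± 6.29 CPM at rank 229. Mir199a-1 had 2 counts in replicate 2 and 2 in replicate 1, or 0.368 and 1.27 CPM, a mean of 0.82 ± 0.638 CPM. Both of its counts are below the 3 that a count of 0 allows, which correspond to 0.553 CPM in replicate 2, against 1.91 CPM in replicate 1, so it was not distinguishable from absence in this column. The remaining 3 genes were detected, beside 324 of all 2202 genes, whose median was 130 CPM.

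The order of levels, Mir214, Mir199b, Mir199a-2 and Mir199a-1, was the same in both libraries. Exact Poisson 95% intervals of neighbours in that order did not overlap within either library. For Mir199b and Mir199a-2, the closest pair of detected genes, they ran from 52.5 to 65.6 and from 16.2 to 23.8 CPM in replicate 2, and from 94.8 to 128 and from 20.9 to 38.3 CPM in replicate 1. These intervals cover the counting error of reads only, and not repeated reads of 1 molecule. Together the 4 genes held 0.243% of the counts in replicate 2 (exact Clopper-Pearson 95% interval 0.239 to 0.248) and 0.181% in replicate 1 (0.175 to 0.188), a mean of 0.212% ± 0.0438 (SD, n = 2). Mir214 alone made up 96.8% of these counts in replicate 2 and 92.3% in replicate 1. The 3 miR-199 genes together held 0.00788% of the counts in replicate 2 and 0.014% in replicate 1.

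**Figure D2:**
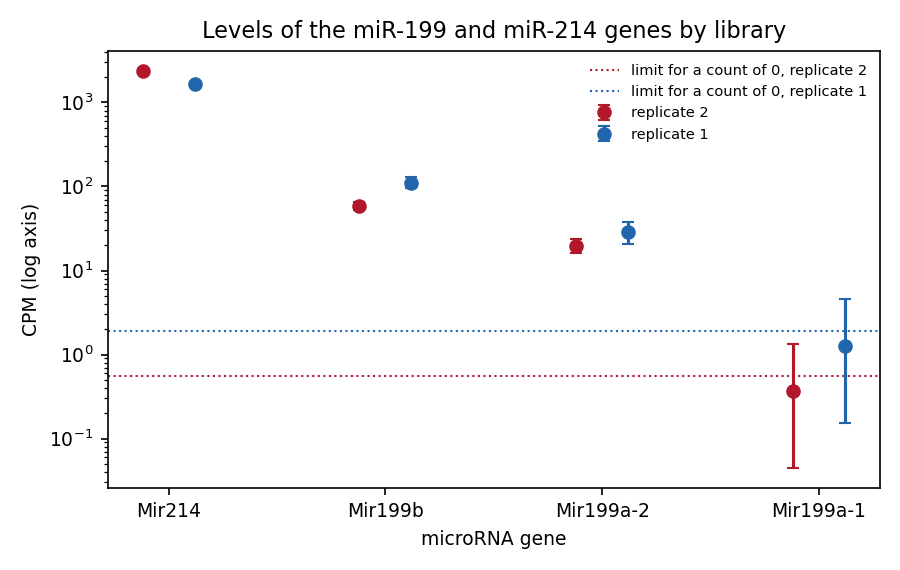
Level of each gene in CPM (log axis), with replicate 2 in red and replicate 1 in blue; bars are exact Poisson 95% intervals and dotted lines the CPM that a count of 0 allows. Mir214 lay at 2355 and 1674 CPM, and both points of Mir199a-1 lay under the dotted line of their own library.

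**Figure D3:**
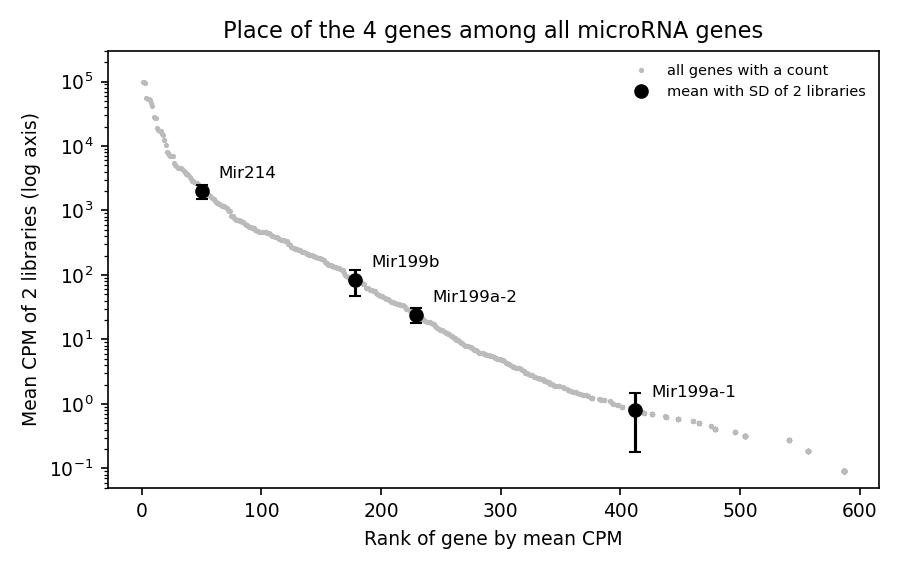
Mean CPM of the 2 libraries (log axis) against rank for all genes with a count, in grey, with the 4 genes in black and bars of 1 SD. Mir214 ranked 50, Mir199b 178, Mir199a-2 229 and Mir199a-1 412, and Mir199a-1 shares its mean with other genes of 2 counts in each library.

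Almost no reads lay opposite these hairpins. The opposite-strand column held 0 reads at every gene in replicate 2, and in replicate 1 it held 1 read at Mir214 and 0 at the other 3 genes. The column that ignores strand accordingly gave the same counts as the gene-strand column, except 2634 in place of 2633 for Mir214 in replicate 1. No other microRNA gene overlaps a member, so none of their reads could be tallied as ambiguous between microRNA genes.

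Mir199a-2 and Mir214 come from the same host transcript, yet Mir214 had 119 times the counts of Mir199a-2 in replicate 2 and 58.5 times in replicate 1. Mir199a-2 had 0.00837 counts for each count of Mir214 in replicate 2 (log2 ratio -6.89, exact binomial 95% interval -7.19 to -6.63) and 0.0171 in replicate 1 (-5.85, -6.33 to -5.45). The mean log2 ratio was -6.37 ± 0.73 (SD, n = 2), so the gap between the genes was larger than the spread between the libraries. Mir199b had 0.025 counts for each count of Mir214 in replicate 2 (log2 ratio -5.32, -5.49 to -5.16) and 0.0661 in replicate 1 (-3.92, -4.15 to -3.70). Within the miR-199 genes, Mir199b had 2.98 counts for each count of Mir199a-2 in replicate 2 and 3.87 in replicate 1. Mir199a-1 over Mir199a-2 had a log2 ratio of -5.43 in replicate 2 (exact interval -8.81 to -3.85) and -4.19 in replicate 1 (-7.58 to -2.56), on 2 counts each.

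Reads with several alignments are in no gene count, and the miR-199a strands occur in several hairpins. Such reads were 69.7% of the reads of replicate 2 and 68.6% of those of replicate 1. The tally does not say which genes they match, so the part of this tally in the low miR-199 counts was not tested. The level of miR-199a and miR-199b strands as molecules is therefore uncertain, whereas both strands of Mir214 occur in no other hairpin of the table. No genome sequence was used, so copies outside annotated microRNA genes were not searched.

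The 4 genes were set beside other genes of the table by the number of loci of their strands. Of 1018 genes with a strand in the RefSeq table, 49 had no listed strand confined to 1 locus, among them Mir199a-1, Mir199a-2 and Mir199b, the last by its 3p strand alone. Of those 49 genes 6 were detected, with a median of 54.4 CPM and a range of 5.85 to 560 CPM. Mir199a-2 and Mir199b were the middle values of these 6, and that median is the midpoint between them. It is therefore no outside measure to set these members against. The others were Mirlet7c-2 at 560 CPM, Mirlet7a-1 at 184 CPM, Mir3074-1 at 6.86 CPM and Mir219a-2 at 5.85 CPM. Both let-7 genes lay above the median of 130 CPM of all detected genes. Among 908 genes with every listed strand at 1 locus, 248 were detected, with a median of 179 CPM, and 43 of these lay above Mir214. Among the 61 genes with only part of their strands at 1 locus, 35 were detected with a median of 47.5 CPM. As a share, 12.2% of the first class, 27.3% of the second and 57.4% of the third were detected. These are descriptions of classes of genes that are not independent, and the classes differ in more than the number of loci. The classes also rest on listed strands only, of which Mir199b had 1, so an unlisted strand could place a gene in another class.

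**Figure D4:**
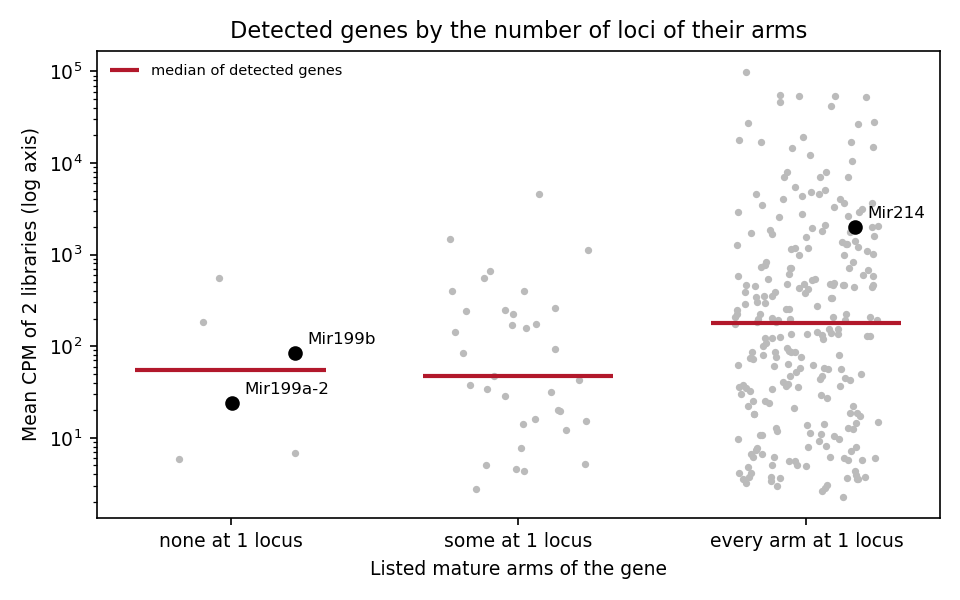
Mean CPM of detected genes (log axis) in 3 classes by whether their listed mature strands occur at 1 locus, with red lines at the class medians of 54.4, 47.5 and 179 CPM from left to right. Mir199a-2 and Mir199b are 2 of the 6 detected genes of the left class and alone set its median, and Mir214 stands in the right class at 2014 CPM.

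Mir199a-2 and Mir214 were set beside other neighbouring genes of the same kinds. Pairs were formed of same-strand genes with starts at most 10 kb apart, the upper gene of the ratio having no listed strand at 1 locus and its partner every strand at 1 locus, with at least 1 of them detected. There were 4 such pairs. Mirlet7a-1 over Mirlet7d, of the let-7 family of growth-restraining microRNAs, had a mean log2 ratio of -6.52, within the SD of 0.73 from the -6.37 of Mir199a-2 over Mir214. Mirlet7c-2 over Mirlet7b had -4.98, a smaller gap by more than that SD. The last pair, Mir199b over Gm23363, had a ratio above 0 because Gm23363 had 1 count in all. The log2 ratio of Mir199a-2 over Mir214 moved by -1.04 between the libraries, replicate 2 minus replicate 1, against -0.51 and -0.28 for the let-7 pairs.

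The 3 detected genes did not move together between the libraries: Mir214 was higher in replicate 2, Mir199b was lower there, and Mir199a-2 did not pass the test. Ratios of replicate 2 over replicate 1 were tested for each of 364 genes that reached 10 counts over both libraries by a two-sided exact binomial test on reads with library totals as odds, adjusted by Benjamini-Hochberg over all of them. This test compares 2 libraries of 1 group and not conditions, and it takes reads as the only source of error. At an adjusted p under 0.05 it called 45.3% of all genes tested, 15.1% as higher in replicate 2 and 30.2% as higher in replicate 1. Of the 3 members tested 2 passed, 1 in each direction, a share that is not set apart from that background. Library totals gave 55 calls higher in replicate 2 and 110 lower there, whereas TMM scaling gave 76 and 90 and DESeq2 size factors gave 95 and 80.

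Mir214 was 1.41-fold higher in replicate 2 than in replicate 1 (log2 ratio 0.49, exact 95% interval 0.43 to 0.55, exact binomial adjusted p = 2.67e-60). Mir199b was lower in replicate 2, with a log2 ratio of -0.91 (-1.18 to -0.64, exact binomial adjusted p = 5.43e-10). Mir199a-2 had a log2 ratio of -0.55 (-1.05 to -0.00138), with an exact binomial adjusted p of 0.0845. Mir199a-1 was under the count minimum and no ratio is given. Over the 324 detected genes edgeR put the common coefficient of variation at 24.6%, with 1 residual degree of freedom. For 1 gene this gives the log2 ratio an SD of 0.50. Mir199a-2 and Mir199b lay beyond that SD, as did 29% of detected genes, and Mir214 lay just within it. With TMM and DESeq2 scaling Mir214 lay beyond it, at 0.57 and 0.62, and Mir199a-2 within it, at -0.47 and -0.41. The median log2 ratio of detected genes was -0.15, and scaling by DESeq2 size factors moved all ratios by 0.13, which kept the signs of all 3 genes.

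Relative to Mir214, both miR-199 genes were lower in replicate 2 than in replicate 1. The odds of a Mir199a-2 count against a Mir214 count differed between the libraries by -1.03 on the log2 scale, replicate 2 minus replicate 1 (a conditional estimate without offset, exact 95% interval -1.55 to -0.49, Fisher's exact test, adjusted p = 0.000204). For Mir199b against Mir214 the difference was -1.40 (-1.68 to -1.12, Fisher's exact test, adjusted p = 4.61e-21). For Mir199b against Mir199a-2 it was -0.37 (-0.98 to 0.21, Fisher's exact test, adjusted p = 0.204), so a difference between the miR-199 genes was not detectable at this depth. These 3 comparisons, adjusted among themselves, were chosen after the values had been seen and cover counting error only. Both differences that passed exceed the SD of 0.71 that the spread of 0.50 per gene gives for the difference of 2 genes. How many other pairs of genes exceed that SD was not counted. Among single detected genes, 29% lay beyond the SD of 1 gene, so passing 1 SD does not set these pairs apart.

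Other microRNA genes of fibroblasts and mesenchyme were mostly lower in replicate 2, as Mir199b was and Mir214 was not. Of 9 listed genes, 8 were lower in replicate 2 at an adjusted p under 0.05 and 0 higher, beside 30.2% and 15.1% of all genes. With TMM or DESeq2 scaling 8 were lower and 1, Mir29b-1, was higher. Their median log2 ratio was -0.58, beside -0.15 over all genes tested. The list was fixed with earlier results of these data known, and some of its genes share a cluster. Its counts, median and levels are therefore a description, and no test of the list was run. Mir143, typical of smooth muscle cells and fibroblasts, had 59272 CPM in replicate 2, against 127590 CPM in replicate 1, and its cluster partner Mir145a had 1717 CPM in replicate 2, against 3530 CPM in replicate 1. Mir21a, which is linked to fibrosis, had 6431 CPM in replicate 2, against 9619 CPM in replicate 1. Mir29a, which acts on collagen messengers, had 1169 CPM in replicate 2, against 1920 CPM in replicate 1, and Mir29c, of the same family, had 389 and 549 CPM. Mir140, known from cartilage, had 1442 CPM in replicate 2, against 2077 CPM in replicate 1, and Mir455 had 333 and 444 CPM. Mir29b-2, also lower, rested on 25 counts in replicate 2 and 17 in replicate 1. Mir29b-1 did not pass (log2 ratio 0.72, interval 0.03 to 1.57, exact binomial adjusted p = 0.0823). Mir29b-1 and Mir29b-2 each had only 1 of 2 listed strands confined to 1 locus. Reads of the other strand with several alignments are in neither count, so the ratios of both genes may rest on part of their reads.

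**Figure D5:**
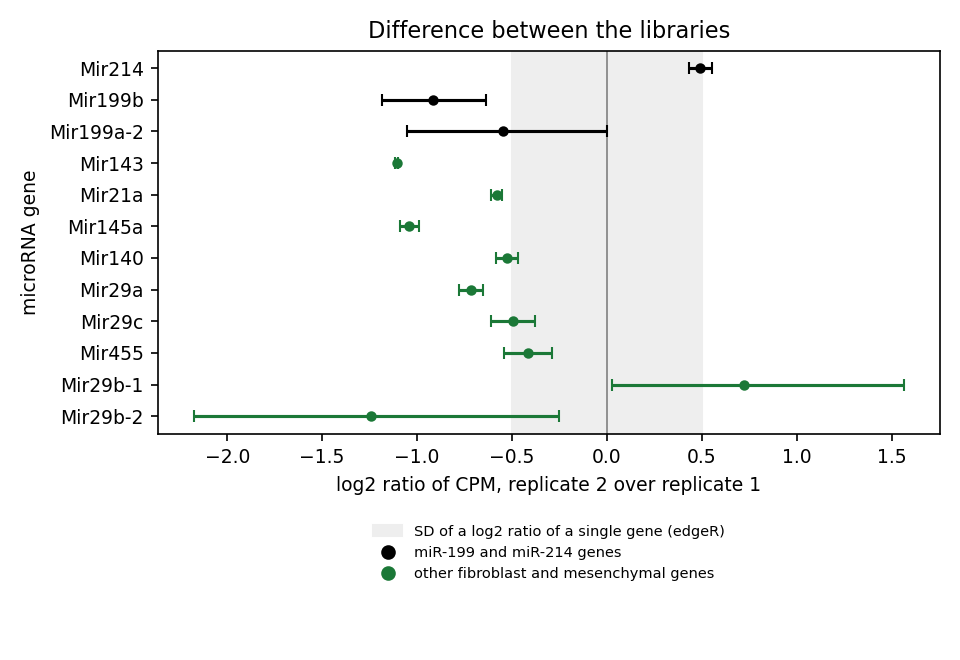
Log2 ratio of CPM, replicate 2 over replicate 1, with exact 95% intervals for Mir214, Mir199b and Mir199a-2 in black and 9 other fibroblast and mesenchymal genes in green; the grey band is the SD of 0.50 for a single gene. Mir214 at 0.49 and Mir29b-1 at 0.72 are the points right of 0, and Mir29b-1 did not pass the test.

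Markers of other cell types also differed in summed level between the libraries, and their part in the differences above was not tested. The 9 striated muscle genes, all detected, summed to 74297 CPM in replicate 2, against 35742 CPM in replicate 1, with 4 called higher in replicate 2 and 3 lower there. The genes called higher were Mir206, Mir208b, Mir499 and Mir133a-1, and those called lower were Mir1a-2, Mir208a and Mir133a-2. Mir206 made up most of that sum, and the other 8 genes summed to 1815 CPM in replicate 2, against 878 CPM in replicate 1. Reads with several alignments are in no gene count, and how far that lowers the level of any marker here was not tested. The large part of Mir206 is therefore one of counted reads and does not rank the mature strands. The fibroblast and mesenchymal list summed to 70777 CPM in replicate 2, against 145751 CPM in replicate 1, most of it from Mir143, and its other 8 genes summed to 11505 CPM in replicate 2, against 18161 CPM in replicate 1. The endothelial list, nearly all Mir126a, summed to 103367 and 93329 CPM, and the white blood cell list of 4 detected genes to 2002 and 2701 CPM, in replicates 2 and 1. The erythroid list summed to 587 CPM in replicate 2, against 2703 CPM in replicate 1, with both genes higher in replicate 1. The epithelial list, 3 of 6 genes detected, summed to 233 CPM in replicate 2, against 423 CPM in replicate 1, most of it from Mir203. The neural and glial list summed to 750 CPM in replicate 2, against 1581 CPM in replicate 1, nearly all from Mir338 of myelinating glia. Mir9-2, Mir124a-1, Mir124a-2 and Mir124a-3 had 0 counts in both. No listed strand of Mir9-2 was confined to 1 locus, so its reads could be among those with several alignments. These 0 counts are therefore no evidence that the microRNAs were absent.

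The genes most like Mir214 were sought among 36 detected genes with a mean CPM within 2-fold of it, by the smallest difference in log2 ratio between the libraries. Over 2 libraries such likeness is only a description of 1 ratio. Only Mir483, which lies in the Igf2 gene, had a ratio at least as high, with 1208 CPM in replicate 2, against 834 CPM in replicate 1 (log2 ratio 0.53). The next were Mir382 (0.37), Mir299a (0.33) and Mir369 (0.27), all of the imprinted Dlk1-Dio3 cluster on chromosome 12, and Mir128-1 (0.20) on chromosome 1. In all, 17 of the 36 genes had a ratio above 0. Neither Mir199a-2 nor Mir199b was among the 36, as their means lie far below that of Mir214.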

How the data were processed

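Each library came with a deposited table of raw counts per microRNA gene. By their values, its 3 columns hold reads on either strand, on the gene's own strand and on the opposite one, below 4 tally rows of unassigned reads. The assembly was mm10 per the labels and the annotation GENCODE M21 per the readme files. How the reads were aligned, counted and filtered is not given in the sources used here. Tally rows stayed out of totals, and gene rows held 22.5% of the reads of replicate 2 and 21.4% of those of replicate 1. The gene-strand column was scaled to CPM.

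Log2 ratios used an offset of 0.5 counts. The exact binomial and Fisher tests, exact intervals and figures used Python 3.11.15 with numpy 2.4.6, scipy 1.17.1, pandas 2.3.3 and matplotlib 3.10.9; edgeR 4.0.16 gave the common dispersion and TMM factors and DESeq2 1.42.0 size factors, in R 4.3.3. The binomial test was tried on simulated counts without spread between libraries, which these libraries have, so that trial does not cover its use here. The dispersion estimate was tried on simulated counts with known spread. The outcomes of these trials are not given here. A strand's loci were hairpins of the table that hold its exact sequence and do not overlap each other.

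The libraries differed beyond sampling noise over 364 genes (chi-square 134418), so they were counted as 2. The members and gene lists were chosen with earlier results of these data known. Genes named were the members, the listed markers, genes near a member or sharing a seed, the pairs, and the 5 genes most like Mir214; genes beside Mir214 in rank and detected genes of the class of Mir199a-2 were named after their values were seen. Alternatives were other scalings, denominators, columns, offsets and minimums, and each replicate left out.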

Additional observations from a re-analysis of the deposited data

Results flagged for a closer look

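Reads that aligned to several places are data that no gene count uses, and their share was 69.7% of the reads of replicate 2 and 68.6% of those of replicate 1. They were 3.09 times the counts on microRNA genes in replicate 2 and 3.21 times in replicate 1. How many of them came from the miR-199 strands is not recorded in the tables, and their part in the low counts of Mir199a-1, Mir199a-2 and Mir199b was not tested.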

How the results depend on the processing

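Levels depended on what they were divided by. With all aligned reads as denominator, Mir214 had 477 counts per 1000000 reads, Mir199b 19.9, Mir199a-2 5.68 and the 4 genes together 502, which follows from the larger denominator. With the either-strand column, Mir214 had 2637 CPM, Mir199a-2 31.5 CPM and the 4 genes together 2780 CPM, because ambiguous reads left the library total while these genes kept their counts. The other 64 values under the alternatives run stayed within the limit set for them. For levels and within-library ratios that limit was the spread between the libraries. For ratios between libraries it was the same direction and side of the test. For numbers of genes and the spread of a single gene it was a set fold change. Leaving out 1 of 2 libraries always moves a mean by less than their SD, so those means could not have passed the limit. The directions of Mir214 and Mir199b were kept under TMM and DESeq2 scaling. The adjusted p of Mir199a-2 in the exact binomial test ranged from 0.0845 to 0.216 over all settings run. Leaving out each replicate gave 1674 to 2355 CPM for Mir214 and log2 ratios of -6.89 to -5.85 for Mir199a-2 over Mir214. The other spread of 0.53 for a single gene, from all 364 genes that reached 10 counts in sum, and the search of hairpins on either strand, which gave 50 genes in place of 49, were chosen after seeing the data. No paired analysis was possible because the libraries form 1 group. The 2 libraries limit every SD, and the 2 counts of Mir199a-1 in each library allow no statement on its change.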
